A study of Mus musculus with 14 samples.

Results

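Oxidative phosphorylation passes electrons through 4 respiratory complexes of the inner mitochondrial membrane, and complex V, the ATP synthase, uses the resulting proton gradient to make ATP. Complexes I, III, IV and V are mosaics: a few subunits are encoded by mitochondrial DNA and made inside the organelle, whereas the others are nuclear genes whose products are imported. Complex II, succinate dehydrogenase, is wholly nuclear and also serves the tricarboxylic acid cycle. Growing neurons depend heavily on this pathway, while proliferating neural progenitors draw more on glycolysis.

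The genes described here are the subunits of complexes I to V in the fetal mouse brain. They were taken as the protein-coding rows whose symbols follow the subunit naming (Nduf, Sdh, Uqcr, Cyc1, Cox4 to Cox8, Atp5 and the mt- genes for Nd, Co, Cytb and Atp) and whose mean normalized count was at least 10. Of 41934 rows in each table, 21823 were protein coding, 99 had such a symbol and 88 reached the minimum, at E13.5 and at E18.5 alike. The 88 comprised 81 nuclear genes, of which 37 belonged to complex I, 4 to complex II, 9 to complex III, 14 to complex IV and 17 to complex V, and 7 mitochondrial genes, of which 5 belonged to complex I, 1 to complex III and 1 to complex IV. Ndufa4 and Ndufa4l2 were kept with complex I by their names, although the Ndufa4 protein is now regarded as a complex IV subunit, and Ndufab1 is outside the naming rule.

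RNA came from whole brains of single male C57BL/6J fetuses, littermates from crosses of Dio3+/- parents. At E13.5 there were 4 Dio3+/+ and 2 Dio3-/- libraries, and at E18.5 there were 3 Dio3+/+ and 5 Dio3-/- libraries. Dio3 encodes the type 3 deiodinase, which inactivates thyroid hormone, and the Dio3-/- mice carry point mutations in every cell that abolish the enzyme's activity but leave a transcript. No agent was given to any group. The libraries were made in 2 batches with different ribosomal RNA depletion kits and instruments.

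Each value used is the authors' mean normalized count of a gene over all libraries of an age, with the genotypes pooled. There is no value per library, so the spread between replicates and the depth of each library are unknown, no test was possible, and every difference below is a description. The comparison of genotypes is not analysed here. The ages were normalized separately and differ in their mix of genotypes, so age and genotype mix cannot be told apart, and the sources used here do not say which library was in which batch. The lowest of 5 neuronal markers was Snap25, with a mean normalized count of 2107 at E13.5 and 5543 at E18.5, and the lowest of 5 markers of neural progenitors was Hes5, with 1087 and 336. In bulk tissue, fewer cells of a type and less RNA per cell cannot be told apart.

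The 13 mitochondrial subunit genes divided sharply by position. The 7 that passed the minimum had mean normalized counts between 7102 (mt-Nd6) and 104270 (mt-Co1) at E13.5, whereas mt-Co2, mt-Atp8, mt-Atp6, mt-Co3 and mt-Nd4l were listed at 0 at either age. The remaining gene, mt-Nd3, stood at 2.23 at E13.5 and 4.28 at E18.5. These 6 genes are neighbours: they lie without interruption between chrM:7013-7696 (mt-Co2) and chrM:9877-10173 (mt-Nd4l) in GRCm38, with mt-Co1 on one side and mt-Nd4 on the other.

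The same stretch has a copy in the nuclear genome. On chromosome 1, 7 annotated genes named as predicted loci (Gm) follow one another on the minus strand over 4663 bases, chr1:24611535-24616197, in the order and spacing of the mitochondrial stretch chrM:6381-11042. Aligned without gaps, they matched the mitochondrial genes at all but 7 of 4149 bases. The beginning of mt-Co2 (chrM:7013-7072, plus strand), which encodes subunit 2 of cytochrome c oxidase, and of its copy Gm28661 (chr1:24615506-24615565, minus strand) is shown because no base differed. Bases 1054 to 1113 of the 1545 of mt-Co1 (chrM:6381-6440, plus strand), which encodes the catalytic subunit 1, are shown too. They stand beside the start of its copy Gm29216 (chr1:24616138-24616197, minus strand), because this pair holds the edge of the copied stretch. Capitals mark bases that differ.
mt-Co2: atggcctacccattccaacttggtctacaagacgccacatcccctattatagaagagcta
Gm28661: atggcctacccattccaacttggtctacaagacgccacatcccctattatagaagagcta
mt-Co1: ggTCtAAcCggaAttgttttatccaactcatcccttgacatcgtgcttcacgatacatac
Gm29216: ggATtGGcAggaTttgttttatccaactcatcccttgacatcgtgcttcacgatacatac

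The 6 capitals of the mt-Co1 stretch were all the differences among the 492 aligned bases of mt-Co1 and Gm29216. Over mt-Co2 and Gm28661 all 681 aligned bases were the same, as were the 678 of mt-Atp6 and Gm10925, the 783 of mt-Co3 and Gm28437, the 294 of mt-Nd4l and Gm10222, and the 876 of mt-Nd4 and Gm28439. The 345 bases of mt-Nd3 and Gm28438 held 1 difference. The copies themselves are not among the rows of the tables.

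A single-end read of 75 bases from such a stretch has more than 1 possible origin, and the default of the counting program leaves out reads with several alignments. Each gene was therefore described by the share of its 75-base windows that occur in no other annotated transcript. That share was 0.492% for mt-Co2, 0.494% for mt-Atp6, 0.141% for mt-Co3, 1.35% for mt-Nd4l and 2.19% for mt-Nd3, the genes at or near 0. It was 100% for mt-Nd1, mt-Nd6 and mt-Cytb, 98.3% for mt-Nd5 and 94.3% for mt-Nd2, which all had high values. The genes at the edges of the copy were intermediate, with 60.2% of windows for mt-Co1 and 38.5% for mt-Nd4, and they were counted. The exception was mt-Atp8, listed at 0 although 100% of its windows were found in no other transcript. Its locus, chrM:7766-7969, falls inside the copied stretch, in a gap between the annotated copies Gm10925 and Gm28661 whose sequence was not analysed here. The part of the nuclear copy in the zeros was not tested.

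**Figure D1:**
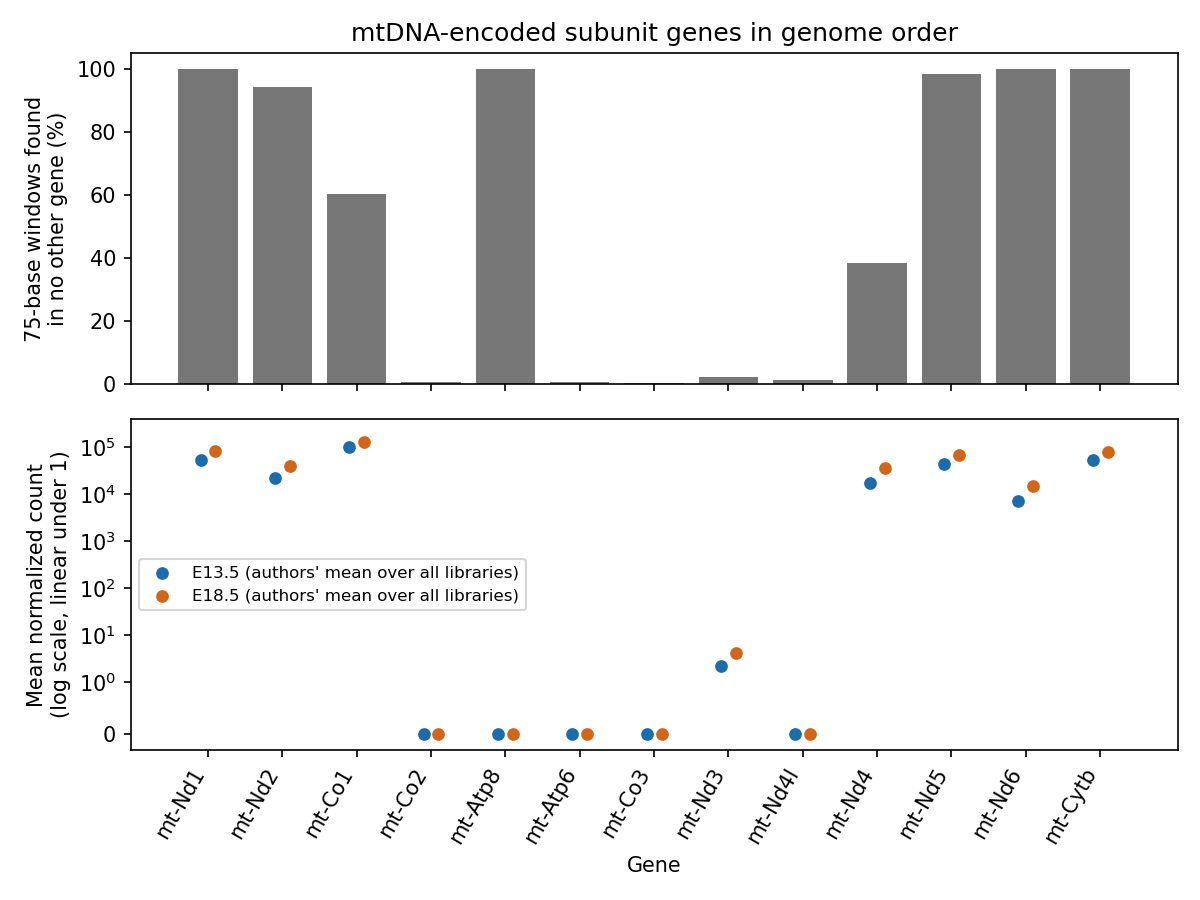
The 13 mitochondrially encoded subunit genes in genome order, with the percent of 75-base windows found in no other annotated transcript (bars, above) and the authors' mean normalized count at E13.5 and E18.5 (points, below, log scale that is linear under 1). The 6 neighbouring genes from mt-Co2 to mt-Nd4l sit at 0 or below 5, and the 7 other genes sit at 7102 or more.

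Levels were compared between genes per kilobase of annotated exon. On that scale mt-Co1 had 67489 at E13.5 and 85333 at E18.5. mt-Nd1, a complex I membrane subunit, had 55808 and 88391, and mt-Cytb, the cytochrome b of complex III, had 47258 and 69460. The complex I subunits mt-Nd5 (24608 and 37100), mt-Nd2 (21004 and 39640), mt-Nd6 (13685 and 28740) and mt-Nd4 (12918 and 26189) followed. mt-Co1 was therefore the highest at E13.5 and mt-Nd1 at E18.5. The order depended on the length used: per 1000 windows found in no other transcript, mt-Co1 led at each age (117819 and 148971), and mt-Nd4, the lowest per kilobase, moved to the middle with 35461 and 71888. mt-Nd6 is the only passing gene on the opposite strand of the mitochondrial genome, and since counting ignored strand, its own RNA and RNA antisense to it cannot be told apart.

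The nuclear subunits had a median level of 663 per kilobase at E13.5 and 648 at E18.5, against 159 and 135 for all 14452 nuclear protein-coding genes with a mean of at least 10 at each age. Their median member stood at the 87.5th percentile of nuclear protein-coding genes at E13.5 and the 89.4th at E18.5. The lowest mitochondrial gene, mt-Nd4 at E13.5, was still above the highest nuclear subunit, Cox8a, at 4504 per kilobase. The 7 mitochondrial genes made up 77.2% of the summed level per kilobase of the 88 members at E13.5 and 84.6% at E18.5. Without division by length these shares were 71.0% and 80.4%. Within complexes the mitochondrial share was 84.8% and 91.3% for complex I, 84.9% and 89.9% for complex III, and 77.1% and 79.6% for complex IV, and these are shares of the genes that could be counted.

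**Figure D2:**
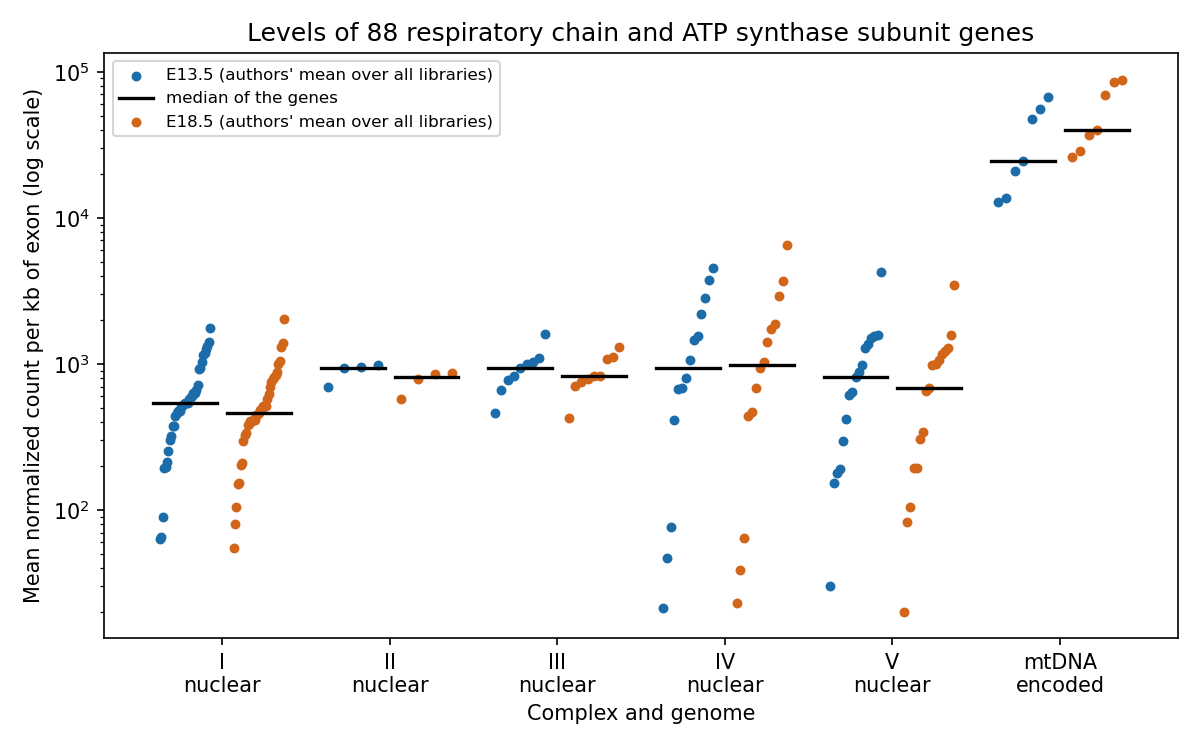
Mean normalized count per kilobase of exon (log scale) of the 88 members, nuclear genes by complex and mitochondrially encoded genes together, at E13.5 and E18.5. Each point is a gene and each bar the median of its group: the 7 mitochondrial genes lie between 12918 and 88391, above all 81 nuclear genes.

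Between complexes the nuclear medians were of the same order. At E13.5 they were 537 per kilobase for complex I, 943 for complex II, 938 for complex III, 932 for complex IV and 816 for complex V. At E18.5 they were 459, 816, 821, 985 and 680. The complexes differed more in their internal spread. The SD of the log2 level at E13.5 was 0.23 over the 4 complex II genes and 0.50 over the 9 complex III genes, but 1.14 in complex I, 1.71 in complex V and 2.38 in complex IV. The SD of complex IV includes the low paralogues Cox4i2 (21.4), Cox7a1 (46.7) and Cox6b2 (76.3). That of complex V includes Atp5l (30.1), most of whose windows are shared. The spread without these genes was not taken. The ranking of the medians was set by the length chosen: per 1000 windows found in no other transcript, complex IV was highest at E13.5 with 2213, followed by complex V with 1842, complex III with 1518, complex II with 1188 and complex I with 973.

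Complex I, the NADH dehydrogenase, has a catalytic core and a shell of accessory subunits. The 7 nuclear core genes had a median of 504 per kilobase at E13.5 and 445 at E18.5, and the 30 accessory genes 537 and 491. Among the core, Ndufs3 was lowest at E13.5 with 192. Among all nuclear complex I genes, the accessory subunit Ndufc2 was highest at each age, with 1757 and 2022. The lowest were Ndufa4l2 at E13.5 (63.1) and Ndufb4 at E18.5 (54.7). Of the windows of Ndufb4, 35.2% were shared with Ndufb4c on chromosome 15, so its value is uncertain.

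The 4 genes of complex II lay close together. Sdha, the flavoprotein that oxidizes succinate, had 931 per kilobase at E13.5 and 785 at E18.5. Sdhb, the iron-sulfur subunit, had 981 and 847. The membrane anchors Sdhc and Sdhd had 697 and 572, and 955 and 865. All windows of these 4 genes were found in no other transcript.

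In complex III, which passes electrons from ubiquinol to cytochrome c, the Rieske iron-sulfur protein Uqcrfs1 was highest, at 1599 and 1314 per kilobase, and the core protein Uqcrc1 lowest, at 458 and 427. Cyc1, the cytochrome c1 subunit, had 938 and 790.

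Complex IV, cytochrome c oxidase, held the highest nuclear member. Cox8a, a small membrane subunit, had 4504 per kilobase at E13.5 and 6487 at E18.5. Cox6b1 had 3727 and 3722, Cox6a1 2833 and 2923, and Cox4i1, the regulatory subunit 4, had 2179 and 1865. At the other end was Cox4i2, its paralogue known from lung and hypoxia, at 21.4 and 23.2. Cox4i2 was the member nearest to the minimum, with mean normalized counts of 16.9 and 18.3, followed by Cox7a1 with 25.01 and 20.64.

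In complex V the catalytic subunit Atp5b was highest, with 4256 per kilobase at E13.5 and 3486 at E18.5. The 5 genes of the F1 head (Atp5a1, Atp5b, Atp5c1, Atp5d and Atp5e) had a median of 1544 and 1286, and the 12 other genes, of the membrane part and the stalk, 515 and 478. Atp5l, subunit g of the membrane part, was lowest with 30.1 and 20.1. Of its windows 24.04% were found in no other transcript, the only nuclear member under 50%, and 235 of its 470 windows were shared with the processed pseudogene Gm10221. Per 1000 windows found in no other transcript, Atp5l had 1716 at E13.5. The start of the coding sequence of Atp5l (bases 82 to 141 of the transcript) and the stretch of Gm10221 (chr5:24581803-24581862, minus strand) are shown because all 309 aligned bases were identical. There are no capitals because no base differed.
Atp5l: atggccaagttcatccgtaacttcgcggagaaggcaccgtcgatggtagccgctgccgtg
Gm10221: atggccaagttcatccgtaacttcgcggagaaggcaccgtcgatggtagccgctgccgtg

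Shared sequence touched other nuclear members less. For 46 of the 81, all windows were found in no other transcript. Atp5h shared 36.5% with Gm10250, Ndufb6 31.3% with Smim27, Ndufs3 27.1% with Gm12251 and Ndufa13 25.6% with Tssk6, and the exons of Ndufb6 and Ndufa13 overlap those partners, so these values are uncertain too. The same holds for Uqcrb, Atp5f1 and Cox7c, with 70.9%, 72.1% and 74.96% of windows found in no other transcript. Across the 81 nuclear members, the share of such windows and the log2 level at E13.5 had Pearson's r of 0.28 and Spearman's rho of 0.25. These are across genes of the same libraries, which are not independent replicates. A pair of gene models carries the symbol Atp5o, which encodes the stalk subunit OSCP: the model ENSMUSG00000022956 had mean normalized counts of 1209 and 1341, and the model ENSMUSG00000116933, whose exons overlap annotated exons over 100% of their length, was listed at 0. Of the windows of the first model 60.9% were found in no other transcript, the lowest share of a passing nuclear member after Atp5l, so its value is uncertain as well.

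Of the 11 genes under the minimum, 6 were the mitochondrial genes described above and 5 were nuclear: the second Atp5o model, Cox6a2, Cox7b2, Cox8b and Cox8c. Cox6a2 and Cox8b, the heart and muscle forms of their subunits, stood at 1.61 and 4.40, and at 2.499 and 2.119. Cox7b2 stood at 0.637 and 3.68, and Cox8c was listed at 0. The last pair are known from testis.

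Complex IV and the ATP synthase ring have paralogous subunits, and in 8 such sets the share of each paralogue in the summed level per kilobase was taken. Cox4i1 made up 99.0% of its set at E13.5 and 98.8% at E18.5, Cox6a1 99.9% and 99.8%, Cox7b 99.9% and 99.6%, and Cox8a 99.8% and 99.9%. Cox6b1 made up 98.0% and 98.3%, with the rest from Cox6b2, known from testis. Ndufa4 held 95.7% and 94.6% beside Ndufa4l2, a gene known to respond to hypoxia. In the Cox7a set, Cox7a2 held 58.2% and 56.7%. Cox7a2l, which takes part in supercomplexes, held 40.1% and 41.7%, and the muscle form Cox7a1 1.75% and 1.55%. In 7 of the 8 sets a single gene therefore held over 75% of the level.

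The set that encodes the c subunit of the ATP synthase ring was shared by 3 genes, which yield the same mature protein. Atp5g3 held 78.7% at E13.5 and 80.2% at E18.5, Atp5g1 10.9% and 12.8%, and Atp5g2 10.4% and 6.95%. The order of Atp5g1 and Atp5g2 turned with the length used: per kilobase of longest transcript, Atp5g1 held 4.88% and Atp5g2 9.86% at E13.5.

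**Figure D3:**
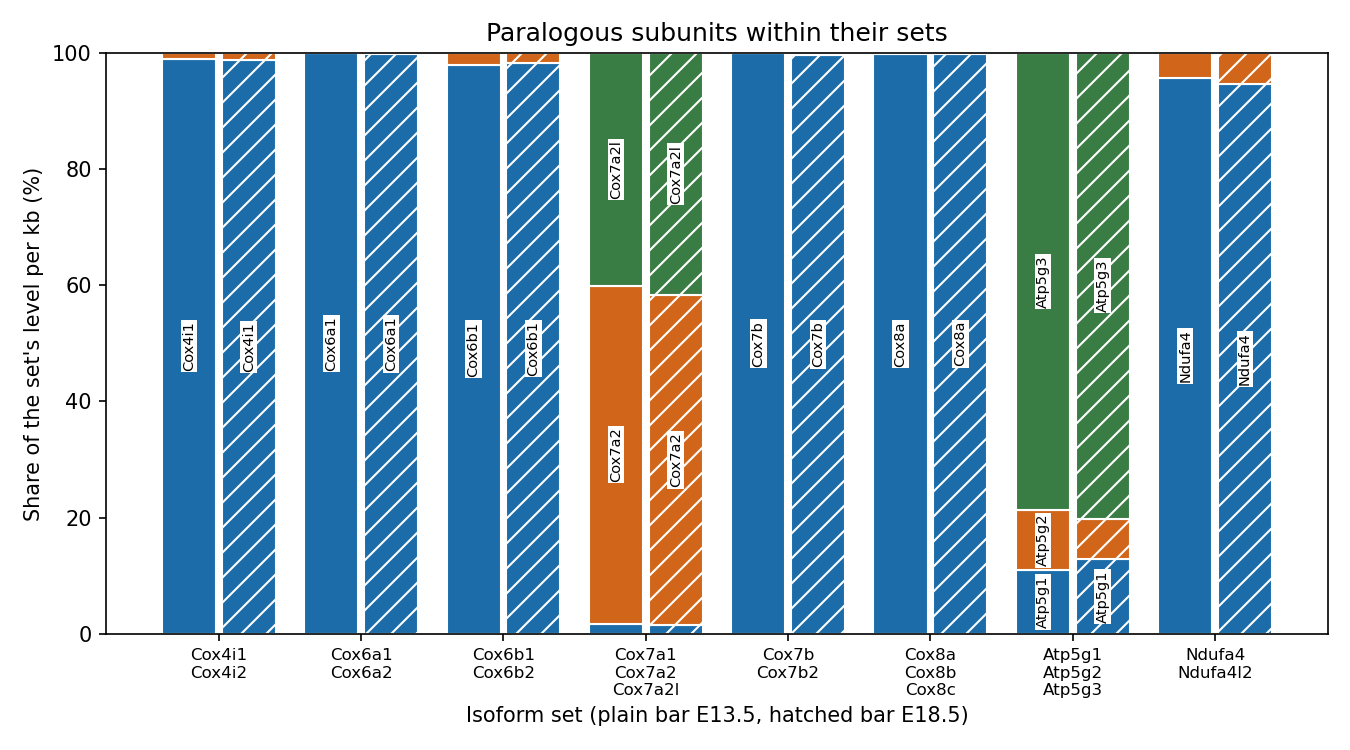
Share of each paralogue in the summed level per kilobase of its set (percent, stacked bars), with a plain bar for E13.5 and a hatched bar for E18.5. A single gene holds most of every set, and the Cox7a and Atp5g sets are the most mixed.

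To set the ages side by side, each mean normalized count was divided by the summed mean normalized counts of nuclear protein-coding genes of its age, and the E18.5 to E13.5 ratio was taken. Over the 14452 nuclear protein-coding genes this ratio had a median of 0.947 and quartiles of 0.738 and 1.33. In that background 19.7% of genes were at least 1.5-fold higher at E18.5, 17.2% at least 1.5-fold lower, and 55.4% below 1.

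All 7 mitochondrial genes were higher at E18.5. The ratio was 2.40 for mt-Nd6, 2.32 for mt-Nd4, 2.16 for mt-Nd2, 1.81 for mt-Nd1, 1.72 for mt-Nd5, 1.68 for mt-Cytb and 1.45 for mt-Co1. Thus 6 of 7 were at least 1.5-fold higher, and mt-Co1 reached 1.53 when the ages were scaled on the median ratio. Together the mitochondrial protein-coding genes took 1.15% of the summed mean normalized counts of protein-coding genes at E13.5 and 1.96% at E18.5. The mitochondrial ribosomal RNAs, which the depletion kits and the authors' removal of ribosomal reads can act on, had ratios in the opposite direction, 0.690 for mt-Rnr1 and 0.427 for mt-Rnr2. The part of the kits, the batches and the genotype mix in these ratios was not tested.

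The nuclear subunits stayed close to 1. Their median ratio was 1.04, and they spread less than nuclear protein-coding genes in general, with an SD of the log2 ratio of 0.28 against 0.88. The subunits also had higher levels, with a median of 663 per kilobase at E13.5 against 159. A background of like level was not taken. Of the 81, 1 was at least 1.5-fold higher and 2 were at least 1.5-fold lower, and 35 (43.2%) were below 1. The nuclear subunits took 0.475% of the summed mean normalized counts of nuclear protein-coding genes at E13.5 and 0.487% at E18.5. Across the 81 genes the log2 levels at E13.5 and E18.5 had a Pearson's r of 0.98 and a Spearman's rho of 0.97, so the ranking of the subunits was nearly the same in the libraries of either age.

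**Figure D4:**
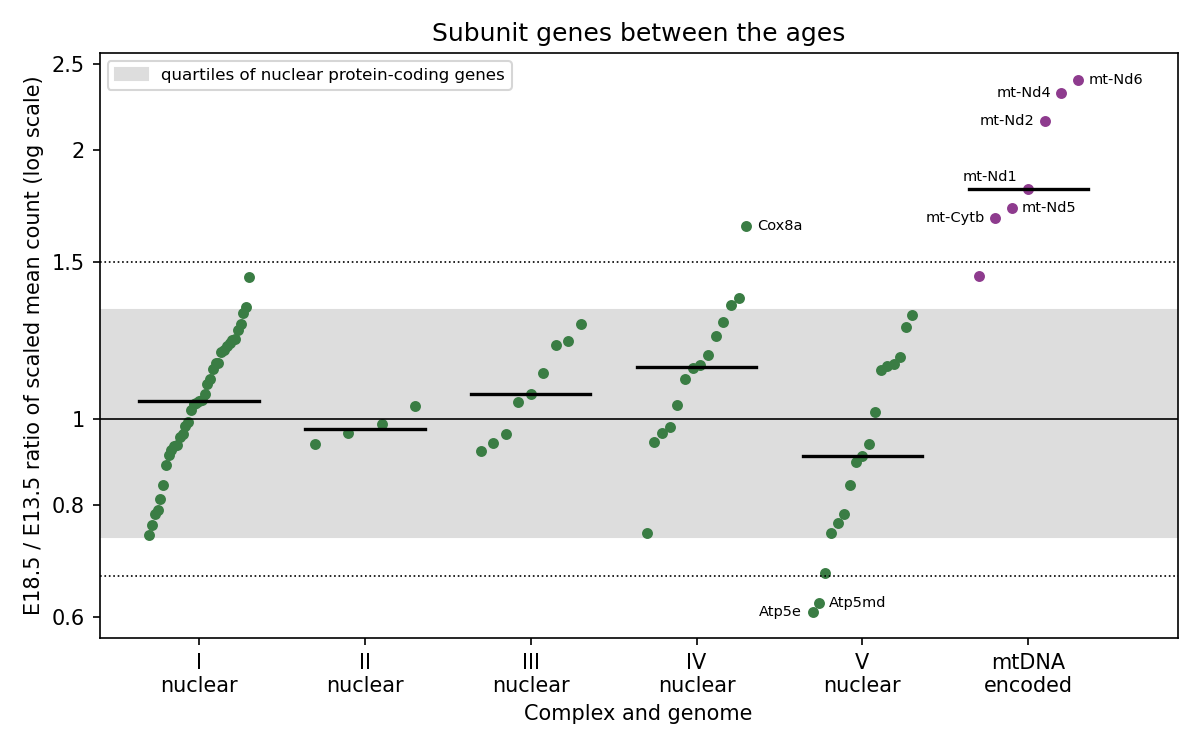
E18.5 to E13.5 ratio of the scaled mean normalized count (log scale) of the 88 members by complex and genome. Points are genes, thick bars medians, the grey band the quartiles of nuclear protein-coding genes (0.738 to 1.33) and dotted lines 1.5-fold higher and lower. The mitochondrial genes lie at 1.45 or above, and of the nuclear genes Cox8a, Atp5e and Atp5md lie outside the dotted lines.

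The gene at least 1.5-fold higher was Cox8a, whose mean normalized counts of 2788 at E13.5 and 4016 at E18.5 gave a ratio of 1.65. The 2 lower genes were in complex V. Atp5e, the epsilon subunit of the F1 head, had 1130 and 601, a ratio of 0.608, and Atp5md, a small membrane subunit known as DAPIT, had 419 and 228, a ratio of 0.622. Just inside the limit was Atp5g2, with 301 and 177 and a ratio of 0.672, and just under it on the other side was Ndufa4l2, with 69.1 and 87.1 and a ratio of 1.44. Values of single libraries are not at hand for these genes, so it is not known whether libraries of the ages overlapped.

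By complex, the median ratio was 1.05 for complex I, 1.07 for complex III, 1.15 for complex IV and 0.908 for complex V. The other 3 scalings each raised all ratios by a common factor, so the medians above 1 could not change side. The median of complex V stayed below 1 under them, at 0.959 when scaled on the median ratio. Over nuclear protein-coding genes the median itself was below 1, at 0.947. For complex II the median was 0.976, with 3 of 4 genes below 1, and it turned to 1.03 when scaled on the median ratio. In complex I, 15 of 37 genes were below 1, with Ndufa7 lowest at 0.742. The core genes had a median of 0.933 and the accessory genes 1.08. In complex III, 3 of 9 genes were below 1, from Uqcrh at 0.920 to Uqcrb, which binds ubiquinone, at 1.28. In complex IV 4 of 14 were below 1, with Cox7c lowest at 0.745. The values of Uqcrb and Cox7c are uncertain because of the shared windows given above. In complex V 10 of 17 (58.8%) were below 1, near the 55.4% of nuclear protein-coding genes. The highest in complex V was Atp5k, subunit e of the membrane part, at 1.31.

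The genes that serve the complexes without being part of them were taken from lists of assembly factors. The median ratio was 1.00 over 14 assembly factors of complex I, of which 7 were below 1, and 0.892 over 4 of complex II, of which 3 were below 1. It was 0.941 over 6 of complex III, of which 4 were below 1, and 0.923 over the 17 of 20 complex IV factors that passed the minimum, of which 12 were below 1. It was 1.03 over 3 of complex V, of which 1 was below 1. Among the assembly factors that passed, only Cox16, which acts in complex IV assembly, was at least 1.5-fold lower, at 0.593. Just inside that limit were Cox19 at 0.669, Pet100 at 0.670, Ndufaf8 at 0.671 and Sdhaf1 at 0.671. Over nuclear protein-coding genes 17.2% were at least 1.5-fold lower and 55.4% were below 1. The medians of the assembly factors stand beside 0.947 for all nuclear protein-coding genes.

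Other mitochondrial lists were lower relative to the subunits. In the background of nuclear protein-coding genes 55.4% were below 1 and the median was 0.947. Of 77 mitochondrial ribosomal protein genes, which make the ribosome that translates the mt- genes, 59 were below 1, with a median of 0.889. Of 12 genes of mitochondrial DNA maintenance and transcription, 11 were below 1, with a median of 0.781. Among them Tfam, which packages mitochondrial DNA and starts its transcription, had 1063 and 663, a ratio of 0.713, and the RNA polymerase Polrmt 830 and 567, a ratio of 0.782. The exception was Tfb2m, a transcription factor of mitochondrial promoters, at 1.21. Over the same ages the 7 mitochondrial transcripts had the higher means given above.

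Of 8 regulators of mitochondrial biogenesis, 6 were below 1 and the median was 0.736, beside 55.4% and 0.947 for nuclear protein-coding genes. The related coactivators Ppargc1a and Ppargc1b were the exceptions, with mean normalized counts of 562 and 1498, and of 66.6 and 169, and ratios of 3.05 and 2.90. The third coactivator of that family, Pprc1, had 1720 and 1102, a ratio of 0.733. The other 5 regulators were also below 1: Nrf1 had a ratio of 0.557, the GABP subunits Gabpa 0.732 and Gabpb1 0.571, Esrra 0.738 and Yy1 0.851. In the tricarboxylic acid cycle, 7 of 14 genes were below 1 and the median was 1.01, with Idh3a, the NAD-dependent isocitrate dehydrogenase subunit, at 1.83 and the NADP-dependent Idh2 at 0.565. Cycs, the soluble electron carrier between complexes III and IV, had a ratio of 1.17.

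**Figure D5:**
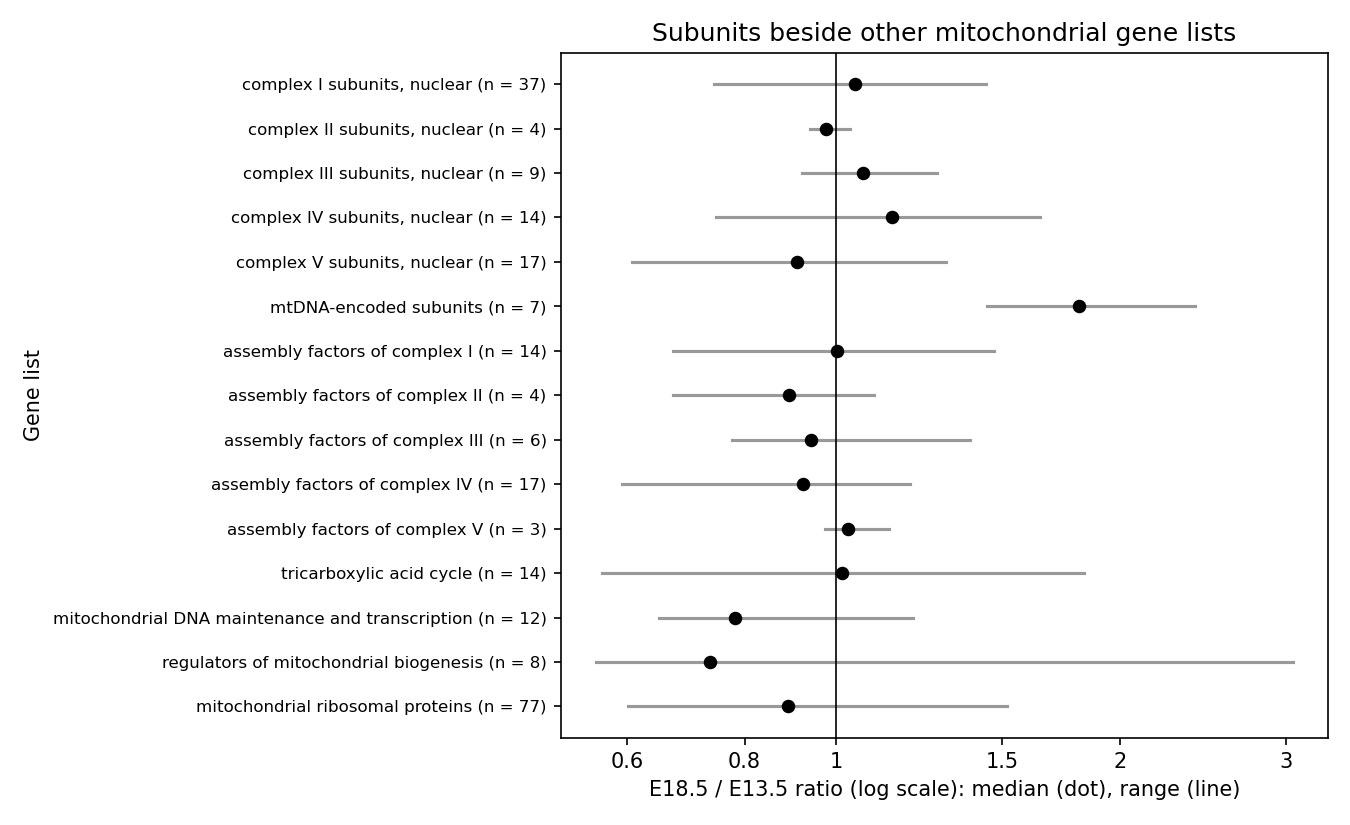
Median (dot) and range (line) of the E18.5 to E13.5 ratio of the scaled mean normalized count (log scale) for the subunits by complex and for other mitochondrial gene lists, with the number of genes that passed the minimum. The mitochondrially encoded subunits have the highest median, 1.81, and the regulators of biogenesis the lowest, 0.736.

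Markers of cell types were set side by side by the same measure, which in bulk RNA cannot separate cell numbers from RNA per cell. The median ratio was 1.2999 over 5 markers of neurons, inside the background quartiles of 0.738 and 1.33. Of these 5, Tubb3 alone was below 1, at 0.914, and Snap25, a synaptic protein, was at 3.01. The median was 0.353 over 5 markers of neural progenitors (all below 1). It was 2.21 over 3 of choroid plexus (none below 1, Kcne2 lowest at 1.03). It was 0.387 over the 6 of 7 red cell markers that passed (all below 1). The red cell marker that did not pass, Hbb-y, had mean normalized counts of 21476 at E13.5 and 7.95 at E18.5. Of 9 markers of skeletal muscle, a tissue rich in these complexes, 5 passed, of which 4 were below 1, with a median of 0.403. Acta1, skeletal muscle actin, was the exception at 2.56, and the mean normalized counts of all 9 summed to 441 at E13.5 and 229 at E18.5. The part of tissue makeup in the ratios of the subunits was not tested.

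The nuclear subunits share a location in the cell and not a genomic one, so their promoters were searched for short core motifs of factors known to regulate them. RefSeq promoters of GRCm38.p6, 250 bases before to 50 after the start, matched 65 of the 81 nuclear symbols and gave 70 promoters. Among those not matched were Atp5a1, Cox4i1, Cyc1 and Sdhc. The NRF1 core GCGCATGC or its reverse complement was in 10 of the 70 (14.3%), against 2.71% of all 32851 promoters and 4.76% of the 14510 promoters of nuclear protein-coding genes with a mean of at least 10. The YY1 core AAGATGGC was in 9 (12.9%), against 2.75% and 3.85%. It was in 7 of the 34 complex I promoters (20.6%), in 2 of the 17 of complex V (11.8%) and in none of the other complexes. The ETS core CCGGAAGT, bound by GABP, was in 5 (7.14%), against 3.89% and 7.10%. Any of the 3 was in 23 (32.9%), against 8.83% and 14.7%. Both strands were searched, the 3 motifs do not overlap one another, and a match is a description of letters and not a bound site.

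For each motif the 250 bases before the start are shown for the member with the highest level at E13.5 among those with a match wholly before the start, with the matches in capitals. For YY1 only 1 promoter had its match wholly before the start, that of Atp5j, and another promoter of Atp5j held no YY1 core. The promoters shown are Cox6a1 for NRF1 (chr5:115348959-115349208, minus strand), where the core and its overlapping reverse complement lie 162 to 153 bases before the start, Atp5h for ETS (chr11:115419920-115420169, minus strand) and Atp5j for YY1 (chr16:84834977-84835226, minus strand). The ratios of these genes were 1.18, 0.894 and 0.745. The exons of Atp5j overlap those of Gabpa, which encodes the DNA-binding subunit of GABP. The Atp5j stretch shown lies inside the annotated loci of Atp5j (chr16:84827866-84835625) and of Gabpa (chr16:84834925-84863779, plus strand).
Cox6a1: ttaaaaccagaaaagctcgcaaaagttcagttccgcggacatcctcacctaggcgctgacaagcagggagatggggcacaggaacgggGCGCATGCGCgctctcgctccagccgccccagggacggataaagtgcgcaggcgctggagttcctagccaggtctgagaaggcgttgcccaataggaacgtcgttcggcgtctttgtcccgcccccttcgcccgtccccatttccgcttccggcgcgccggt
Atp5h: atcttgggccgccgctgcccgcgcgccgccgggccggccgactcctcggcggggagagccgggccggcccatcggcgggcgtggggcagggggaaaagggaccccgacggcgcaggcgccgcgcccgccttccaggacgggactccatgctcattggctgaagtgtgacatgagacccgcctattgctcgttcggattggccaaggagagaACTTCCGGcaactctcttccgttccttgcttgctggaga
Atp5j: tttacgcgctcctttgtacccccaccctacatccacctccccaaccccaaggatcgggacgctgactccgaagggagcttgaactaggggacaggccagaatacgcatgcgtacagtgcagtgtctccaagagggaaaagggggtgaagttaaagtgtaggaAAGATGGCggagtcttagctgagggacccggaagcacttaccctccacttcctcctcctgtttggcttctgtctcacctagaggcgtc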

How the data were processed

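RNA sequencing of 14 fetal mouse brains was used. The authors trimmed reads with cutadapt 3.1, aligned them with STAR 2.5.3a to GRCm38 with the GENCODE VM22 annotation, removed ribosomal and transfer RNA reads with bedtools 2.26.0, counted genes with HTSeq (union, no strand), adjusted the counts between 2 batches with ComBat-seq and normalized them with DESeq2 1.30.1 within each age. The deposited mean normalized count is a signal averaged by the authors over all libraries of an age. The other deposited columns, the authors' comparison of genotypes (log2 fold change, its standard error, statistic and p-values), were not used. Counts were divided by kilobases of exon union from GENCODE M21, which matched all 99 member rows. Ages were scaled on nuclear protein-coding genes. Named genes were the highest and lowest level and ratio of each complex, all mitochondrial and paralogue genes, and those near the minimum. Windows of 75 bases were compared with all M21 transcripts on both strands. No statistical test was made. Members, lists and measures were chosen with earlier results of these data known. Depth per library is unknown. A result that would name 1 further complex I member is not reported here.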

Additional observations from a re-analysis of the deposited data

How the results depend on the processing

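Without replicate values, a median or count was taken as moved when it differed by over 1.5 times from the reported one. Divided by the longest transcript, the median level was 1429 for complex IV and 1297 for complex V at E13.5, and 699, 1534 and 1096 for complexes I, IV and V at E18.5. Per 1000 windows found in no other transcript, chosen after seeing the data, complexes I, III, IV and V had 973, 1518, 2213 and 1842 at E13.5 and 868, 1390, 2281 and 1805 at E18.5. With a minimum of 100, complex IV had 1460 at E13.5. At the laxer planned limit, which is under 1.5-fold, 19 members were higher and 11 lower at E18.5, and at 2-fold 3 were higher and 0 lower. The shares of all nuclear protein-coding genes were taken at 1.5-fold only. Whether the counts at the laxer limit and at 2-fold are many or few is therefore unknown. The other 72 values of medians, shares and counts moved by less than 1.5 times, and of 60 values of paralogue shares 14 moved. Among the 72 were the median ratios under other scalings. Those scalings change all ratios by a common factor (0.859, 0.828 and 0.870 in place of 0.875), so these medians could not move by 1.5 times. Within that limit the complex II median crossed 1, from 0.976 to 1.03. Ndufa4 and Ndufa4l2 placed in complex IV, or no minimum, moved no median by over 1.5 times. No paired analysis was possible because the tables hold no value per library, and for the same reason no library could be left out. Not run were windows unique in the genome, the addition of counts on nuclear copies, which are not rows of the tables, and the removal of Atp5s, Atp5sl and Atp5if1, none of which is among the members.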
